A study of Mus musculus with 12 samples.

Results

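The serpins are protease inhibitors that share 1 fold. Their mRNA was measured in tumourspheres of LM1 and LM9, mouse mammary cancer lines, and of their derivatives labelled as Nfib KO. The members were all protein-coding genes of the count files whose GENCODE M21 symbol starts with Serpin: 27 of the 18278 genes listed. They comprised 17 members of clade B, 3 of clade A, 2 of clade E, 2 of clade F and 1 each of clades G, H and I. GENCODE M21 names 61 protein-coding serpin genes, and the other 34 were not analysed here.

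Each of the 4 groups had 3 libraries, so 12 in all. LM1 and LM9 were grown from lung metastases that formed after piggyBac transposon mutagenesis of HR1, a GFP-sorted mammary tumour line that carries a mutant PIK3CA gene under the CAG promoter, and both carry that background. The knockout pools were made from them with CRISPR-Cas9 against Nfib, a nuclear factor I transcription factor, by pooling single-cell clones, so each pool stands for a few clones. All cells formed spheres for 6 days from 10000 cells per mL with EGF and basic FGF at 20 ng/mL each. The comparison asks how expression in metastatic lines depends on Nfib. LM1KO stands for libraries with the label LM1 Nfib KO, and LM9KO for those with the label LM9 Nfib KO.

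Most serpins are suicide substrates. A protease cuts the exposed reactive loop, the loop inserts into the body of the serpin, and the protease is trapped in a covalent complex that endocytic receptors clear from the extracellular space. Clade E, F, G and most clade A members are secreted, and some of them inhibit the plasminogen activators, thrombin, plasmin or the complement proteases. Clade B members lack a classical signal peptide and act largely inside cells, where Serpinb9 blocks granzyme B. A few members inhibit nothing: Serpinh1 is a collagen chaperone of the endoplasmic reticulum, Serpinf1 is an anti-angiogenic factor, and Serpinb5 is known from mammary epithelium.

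The libraries held 29249075 to 37162594 counts, and 3 counts corresponded to 0.0807 to 0.103 CPM. Levels are in CPM, a gene's counts relative to its library's total after scaling by the trimmed mean of M-values (TMM), and are given as mean ± SD with n = 3. LM9 replicate 1 stood apart from its group: across genes its log2 CPM correlated with the LM1 libraries at r = 0.998 and with LM9 replicates 2 and 3 at r = 0.972 and 0.974. Whether this library holds LM1 cells could not be settled from the labels and was not tested. LM9 means with n = 3 include it, and where a value without it is given, that value rests on LM9 replicates 2 and 3. The LM1KO libraries correlated with the LM9KO ones at r = 0.998 to 0.999, as they did among themselves, and the knockout-labelled libraries correlated with the parental ones of either line at r = 0.778 to 0.795. The correlations thus did not tell LM1KO from LM9KO, and whether each pool came from the line on its label was not tested. Nfib mRNA did not check the knockout labels: it was at 218 ± 22.6 CPM in LM1, 235 ± 5.67 in LM1KO, 154 ± 48.8 in LM9 and 240.0 ± 11.2 in LM9KO. Its log2 fold change was 0.11 ± 0.16 in LM1 (adjusted p = 0.533) and 0.68 ± 0.17 in LM9 (adjusted p = 0.0026), and 0.93 ± 0.07 in LM9 without replicate 1 (adjusted p = 1.14e-09). Most markers of cell type differed between the labels. So did 86.8% of all genes tested in the contrast averaged over the lines, 46.3% higher and 40.5% lower, and the marker counts are to be read beside these shares. Of the epithelial markers in the files, 6 of 7 were lower and 1 was higher in the knockout-labelled libraries, and their summed level was 763 to 816 CPM in LM1, 814 to 1480 in LM9, 7.84 to 7.88 in LM1KO and 7.10 to 7.88 in LM9KO. Krt18 had 0 to 4 counts in LM1KO and 0 to 1 in LM9KO. Of the mesenchymal or fibroblast markers 8 of 10 were higher and 2, Fn1 and Dcn, were lower, with sums of 14566 to 15861 CPM in LM1, 14126 to 16479 in LM9, 6868 to 6929 in LM1KO and 6664 to 6777 in LM9KO. Col1a2 and Cdh2 were at 0 in every LM1 and LM9 library. Of the endothelial markers 3 of 4 were higher, with sums of 0.940 to 0.957 CPM in LM1, 0.573 to 2.64 in LM9, 372 to 377 in LM1KO and 369 to 376 in LM9KO, among them Kdr at 0 to 2 counts in LM1 and 282 CPM in LM1KO, while Pecam1 was at 0.314 and 0.433 CPM. Of the immune markers Csf1r was higher and Cd68 lower, with sums of 450 to 467 CPM in LM1, 466 to 554 in LM9, 110 to 116 in LM1KO and 107 to 117 in LM9KO. None of the 6 hepatocyte markers was among the genes analysed. The part of these markers in the serpin results was not tested, and in bulk RNA fewer cells of a type and less RNA per cell cannot be told apart.

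More serpins reached 5 CPM in the knockout-labelled libraries than in the parental ones. Serpine2, the parental lines' most abundant member per length, was almost absent from the knockout-labelled libraries. A group mean of at least 5 CPM was reached by 8 members in LM1 and 9 in LM9, and by 14 in LM1KO and 14 in LM9KO. The share of all genes that reached it in each group is not given here, so this is not shown to be particular to serpins. In LM1KO against LM1, 25 of 27 members passed (limma-voom adjusted p under 0.05), 21 higher and 4 lower, where 81.2% of all genes tested passed, 43.1% higher and 38.1% lower. In LM9KO against LM9 the count was again 25, with 21 higher and 4 lower, against 82.3% of all genes, 44.3% higher and 38.0% lower. The same 25 members passed in both lines with the same sign. The contrasts of the lines are not independent: the correlations did not tell LM1KO from LM9KO, LM9 replicate 1 resembled LM1, and the fit shares 1 estimate of the spread. Their agreement therefore does not count as a repeat in a separate line. In the contrast averaged over the lines, 21 members rose and 4 fell, and the background was 86.8%, with 46.3% higher and 40.5% lower. The share of members called, 92.6%, was thus near that of all genes. The members' median log2 fold change was 3.99, and that of all genes tested was 0.11. The members' median was 3.99 as well with members at 0 in a parental group set to their bound. This says little, since a median does not depend on how far such members lie above it. All 27 members passed the filter on low counts, although 13 of them had no more than 5 counts in each of the 6 parental libraries, and could have entered the test only through the knockout-labelled libraries. All 13 of these rose, so the median of 3.99 rests in part on members whose direction was set by the filter. A median over the other members was not taken. Those that fell were Serpine2, Serping1, Serpinb8 and Serpinh1. Serpina3g and Serpinb6b passed in neither line. Without LM9 replicate 1, 26 members passed for LM1, 27 for LM9 and 26 when averaged, against 88.6%, 88.9% and 91.9% of all genes. The libraries of LM1 and LM1KO did not overlap for any of the 27 members, where 89.1% of all genes tested did not overlap, and those of LM9 and LM9KO did not overlap for 25 members, against 80.5% of all genes. Each such gene was at 0.1, the smallest two-sided p that an exact permutation of 3 against 3 libraries allows. With library totals in place of TMM the median change of all genes was 0.40 instead of 0.11 (log2), and no called member changed its direction. Nothing in the labels says that replicates were separate cultures, so the p-values measure only the spread between these libraries.

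**Figure D1:**
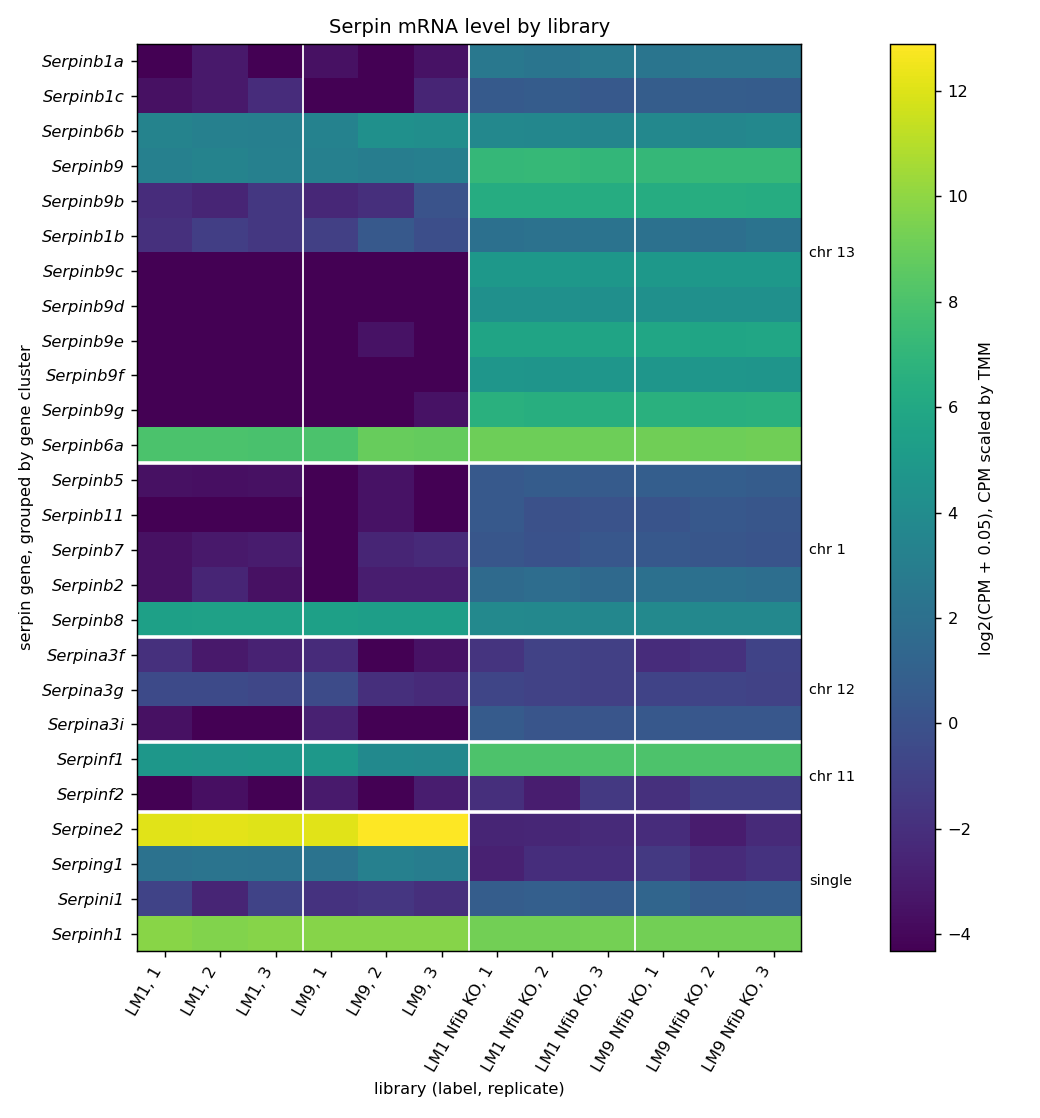
Level of 26 serpin genes (rows, grouped by gene cluster) in the 12 libraries (columns), as log2(CPM + 0.05). The rows of Serpinb9c to Serpinb9g are dark in the 6 LM1 and LM9 libraries and light in the 6 knockout-labelled ones, Serpine2 shows the reverse, and LM9 replicate 1 resembles the LM1 columns.

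Among the inhibitors of the plasminogen activators and thrombin, Serpine2 fell to a few counts per library. Serpine2 (protease nexin-1, chromosome 1, 79794197 to 79861180, mm10) is a secreted, heparin-binding inhibitor of thrombin, urokinase and plasmin. It was at 4456, 4542 and 4269 CPM in LM1 and at 4429, 7276 and 7579 CPM in LM9. Only 5 to 6 counts per library remained in LM1KO and 3 to 7 in LM9KO. The groups did not overlap in either line. By the summed counts its level was 32069-fold lower in LM1KO than in LM1 (95% counting interval 19748 to 56107) and 46639-fold lower in LM9KO than in LM9 (28719 to 81596), intervals that cover counting error only. The latter was 54863-fold (33784 to 95985) with LM9 replicate 1 left out. The averaged log2 fold change was -15.14 ± 0.43 (SE, adjusted p = 1.80e-11). The sequence upstream of Serpine2 is printed because it had the largest fall of the family. It covers the 250 bases before the RefSeq start (GRCm38.p6), on the minus strand at chr1:79858666-79858915, inside the longer GENCODE gene. Capitals mark the nuclear factor I core TTGGC, on either strand.
Serpine2: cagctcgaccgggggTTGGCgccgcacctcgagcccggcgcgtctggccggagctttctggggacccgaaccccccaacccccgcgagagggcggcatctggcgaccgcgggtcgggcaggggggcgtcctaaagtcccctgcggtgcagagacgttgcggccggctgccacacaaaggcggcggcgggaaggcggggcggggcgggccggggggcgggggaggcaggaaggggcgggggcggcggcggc
The promoter from 250 bases before to 50 after this start was 77.7% G and C, where the median of all promoters was 52.7%.

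Per kb of exon, the scale on which genes can be compared, Serpine2 stood at 534 ± 16.8 CPM per kb in LM1 and 776 ± 209.7 in LM9, the first of the family in both, and at 0.0167 and 0.0165 in LM1KO and LM9KO, the last of the family in both.

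Serpinb2, Serpinf2 and Serpini1, which act in the same system, were rare. Serpinb2 (plasminogen activator inhibitor 2) had at most 4 counts in any parental library and was at 3.13 ± 0.342 CPM in LM1KO and 3.93 ± 0.212 in LM9KO, and its averaged log2 fold change was 5.78 ± 0.35 (adjusted p = 1.49e-08). Its exons overlap those of the neighbouring Serpinb10 on the same strand by 291 bases. Serpinf2 (alpha-2-antiplasmin) rose from 0 to 2 counts in the parental libraries to 3 to 12 in LM1KO and 8 to 17 in LM9KO, which is 0.199 and 0.346 CPM. Serpini1 (neuroserpin), a secreted inhibitor of tissue plasminogen activator best known from neurons, was at 0.375 ± 0.219 CPM in LM1 and 1.67 ± 0.143 in LM1KO, and at 0.238 ± 0.0427 and 1.94 ± 0.429 in LM9 and LM9KO.

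**Figure D2:**
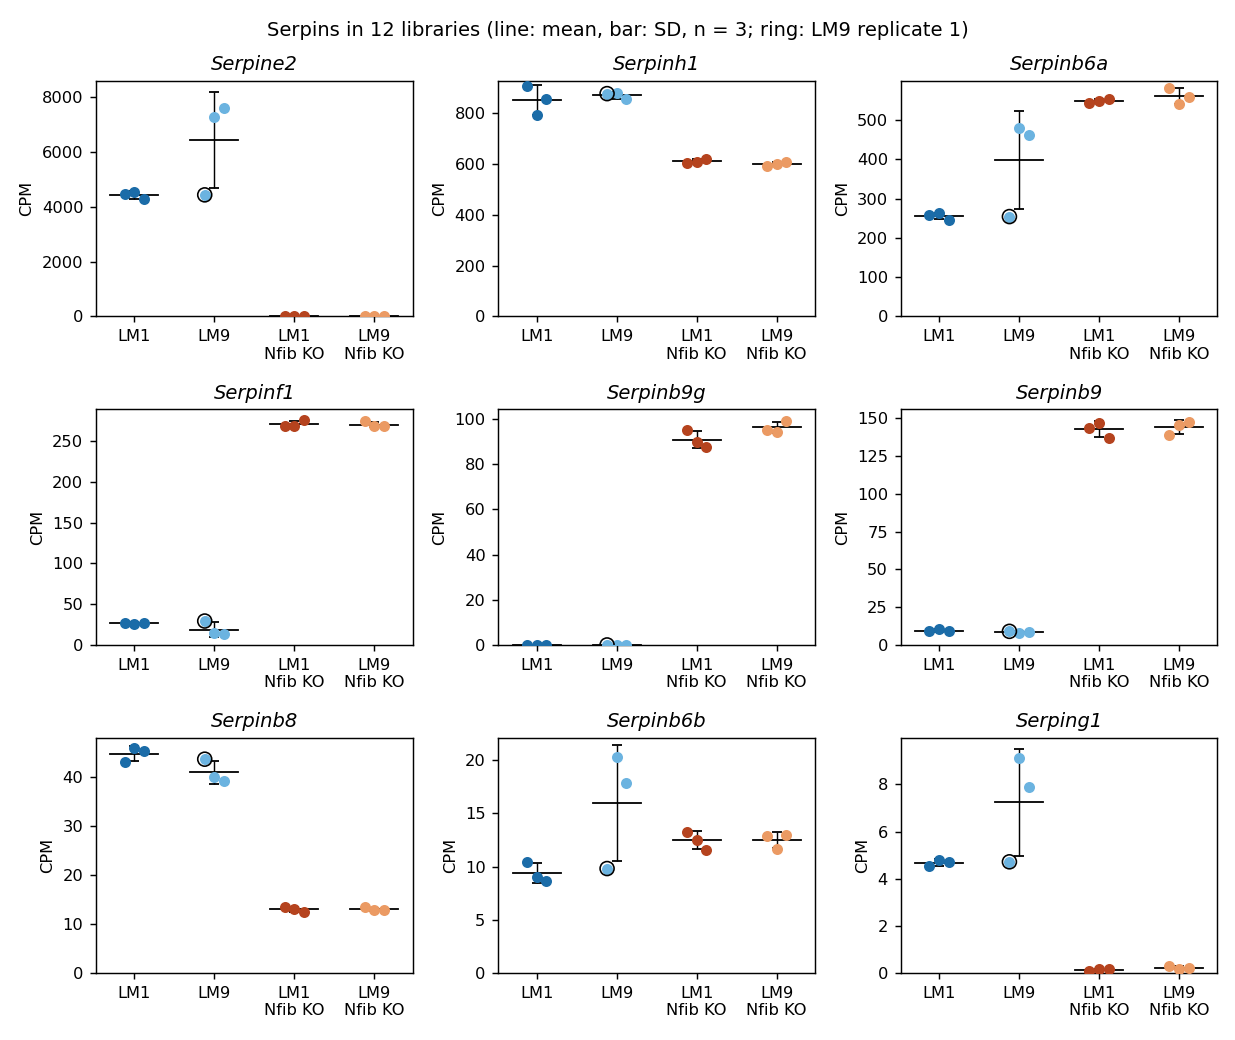
CPM of 9 serpins in each library, with the mean as a line and the SD as a bar (n = 3), on linear axes that start at 0. Serpine2, Serpinh1, Serpinb8 and Serping1 are lower in both knockout-labelled groups, Serpinf1, Serpinb9, Serpinb9g and Serpinb6a are higher, and the ringed LM9 replicate 1 lies at the LM1 level for Serpine2, Serpinb6a, Serpinf1 and Serping1.

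The largest cluster of members lies on chromosome 13, from 32842092 to 34002794 (mm10), where 12 clade B genes span 1161 kb. It contains Serpinb1a to Serpinb1c, which in mouse correspond to the human leukocyte elastase inhibitor, Serpinb6a and Serpinb6b, and 7 paralogs of Serpinb9. In the averaged contrast 11 of the 12 rose, none fell and Serpinb6b did not pass, where 46.3% of all genes tested rose and 40.5% fell. Of these 11, Serpinb1a, Serpinb1c and Serpinb9c to Serpinb9g had at most 5 counts in every parental library, and so could have entered the test only through the knockout-labelled libraries. The summed level of the 12 was 275 ± 9.17 CPM in LM1, 1015 ± 4.62 in LM1KO, 424 ± 131 in LM9 and 1039 ± 20.0 in LM9KO. Over LM9 replicates 2 and 3 it was at 510.5 and 489 CPM. That of the 7 Serpinb9 paralogs alone was 9.65 ± 0.722 CPM in LM1, 442 ± 9.35 in LM1KO, 8.96 ± 0.670 in LM9 and 454 ± 4.79 in LM9KO.

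Serpinb9 (33003250 to 33017957) is the intracellular inhibitor of granzyme B, the serine protease of cytotoxic lymphocytes. Its values were 9.0, 10.4 and 9.0 CPM in LM1, 144, 147 and 137 in LM1KO, 9.01, 7.98 and 8.5 in LM9 and 139, 146 and 148 in LM9KO. The parental levels were low but present in all 6 libraries, LM9 replicate 1 included, and the averaged log2 fold change was 4.0 ± 0.06 (adjusted p = 1.68e-13). None of its 76-base windows, the length of the reads, occurs in another gene.

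Its neighbour Serpinb9b (33027416 to 33041884) had 4 to 8 counts in the LM1 libraries and 0.135, 0.201 and 0.984 CPM in LM9, and was at 81.8, 79.6 and 80.7 CPM in LM1KO and 82.2, 83 and 79.6 in LM9KO. LM9 replicate 3 was the highest of the parental libraries. By summed counts this was 420-fold higher in LM1KO than in LM1 (counting interval 262 to 722) and 192-fold higher in LM9KO than in LM9 (137 to 277). Without LM9 replicate 3, which held 25 of the 34 counts of LM9, the latter ratio was 494 (260.1 to 1080), and without LM9 replicate 1 it was 137 (95.6 to 203). Serpinb9b and the paralogs described next thus went from near or below detection to levels above 10 CPM.

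Serpinb9c, Serpinb9d and Serpinb9f had 0 counts in all 6 parental libraries, which allows up to 3 counts per group. Serpinb9c was at 28.4, 29.2 and 28.1 CPM in LM1KO and 28.6, 28.8 and 29.2 in LM9KO. Serpinb9d was at 20.1, 20.0 and 18.8 CPM in LM1KO and 19.5, 19.8 and 20.0 in LM9KO. Serpinb9f was at 25.9, 25.1 and 26.4 CPM in LM1KO and 26.7, 26 and 25.4 in LM9KO. Set against 3 counts over the parental group, these were at least 843-fold, 579-fold and 761-fold higher in LM1KO, and at least 768-fold, 526-fold and 693-fold higher in LM9KO. With LM1 replicate 2 left out, the bounds in LM1KO were 532-fold, 366-fold and 481-fold, and with LM9 replicate 1 left out those in LM9KO were 483-fold, 331-fold and 436-fold, since 3 counts were then set against smaller parental totals. Serpinb9e and Serpinb9g had 0 counts in LM1 and 1 count each over the 3 LM9 libraries, in replicate 2 for Serpinb9e and replicate 3 for Serpinb9g. Serpinb9e was at 54.1, 53.8 and 52.7 CPM in LM1KO and 58.6, 54.8 and 58 in LM9KO, and LM1KO was at least 1579-fold above LM1. Serpinb9g was at 95.1, 89.9 and 87.8 CPM in LM1KO and 95.3, 94.4 and 99.3 in LM9KO, and LM1KO was at least 2684-fold above LM1. Against the single count in LM9 the ratios were 4559 (818 to 180091) for Serpinb9e and 7689 (1380 to 303739) for Serpinb9g. Without the library that held the count, LM9 is at 0 and LM9KO was at least 1047-fold higher for Serpinb9e and at least 1748-fold for Serpinb9g. The ratios were 2867 (514 to 113246) and 4835 (868 to 190999.7) without LM9 replicate 1, and without LM1 replicate 2 the bounds in LM1KO were 997-fold and 1695-fold. Per kb of exon Serpinb9g was the highest of the 5 in LM1KO, at 47.2 ± 1.94 CPM per kb, followed by Serpinb9e at 27.8 ± 0.394. Serpinb9d, Serpinb9c and Serpinb9f came next at 15.7 ± 0.604, 14.3 ± 0.279 and 13.5 ± 0.343, and the order was the same in LM9KO.

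Serpinb9d, Serpinb9e, Serpinb9f and Serpinb9g are near copies, which bears both on their counts and on what lies upstream of them. Of the 76-base windows of their transcripts, 64.9% in Serpinb9f, 44.5% in Serpinb9g, 17.2% in Serpinb9e and 16.3% in Serpinb9d also occur in another gene, against 0 in Serpinb9. For Serpinb9f, 51.9% are shared with Gm11397 and 25.9% with Serpinb9g. How reads that match several genes were counted is not stated in the sources used here, so the split between these 4 genes and Gm11397 is uncertain. The 250 bases upstream of the 4 RefSeq start sites (GRCm38.p6) are printed because the 4 genes moved together. They lie on the plus strand at chr13:33249358-33249607 for Serpinb9e, chr13:33192705-33192954 for Serpinb9d, chr13:33323827-33324076 for Serpinb9f and chr13:33484540-33484789 for Serpinb9g. Capitals mark the bases that differ from Serpinb9e in a pairwise alignment: 25 in Serpinb9d, 2 in Serpinb9f and 11 in Serpinb9g.
Serpinb9e: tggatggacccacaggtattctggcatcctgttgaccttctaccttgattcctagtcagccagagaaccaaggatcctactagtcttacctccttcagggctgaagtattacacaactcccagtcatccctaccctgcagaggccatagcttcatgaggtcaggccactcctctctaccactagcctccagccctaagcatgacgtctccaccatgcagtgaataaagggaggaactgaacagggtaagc
Serpinb9d: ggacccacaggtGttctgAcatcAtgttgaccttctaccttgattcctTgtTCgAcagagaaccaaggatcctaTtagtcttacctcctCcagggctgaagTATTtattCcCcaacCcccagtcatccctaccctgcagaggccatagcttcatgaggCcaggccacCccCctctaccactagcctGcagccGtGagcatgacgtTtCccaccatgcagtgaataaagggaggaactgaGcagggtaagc
Serpinb9f: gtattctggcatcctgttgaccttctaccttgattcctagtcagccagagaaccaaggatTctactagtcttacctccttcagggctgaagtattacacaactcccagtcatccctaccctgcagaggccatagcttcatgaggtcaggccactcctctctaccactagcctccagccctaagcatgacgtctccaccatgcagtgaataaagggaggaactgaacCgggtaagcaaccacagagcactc
Serpinb9g: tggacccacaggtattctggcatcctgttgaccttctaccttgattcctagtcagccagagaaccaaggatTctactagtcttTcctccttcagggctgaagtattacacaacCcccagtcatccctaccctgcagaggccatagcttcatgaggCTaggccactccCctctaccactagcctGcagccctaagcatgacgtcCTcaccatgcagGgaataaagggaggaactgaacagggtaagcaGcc
Over the 300 bases from 250 before to 50 after the start, bases aligned and identical to Serpinb9e made up 94.7% in Serpinb9g, 94.3% in Serpinb9f and 91.0% in Serpinb9d. These shares count unaligned bases as differing. The Serpinb9f window lacks the first 15 bases of the Serpinb9e window, which lowers its share. By differing bases in the 250 upstream, Serpinb9f was the closest to Serpinb9e. Serpinb9e and Serpinb9c shared 66.0%, and Serpinb9 and Serpinb9b 62.0%. The paralogs with 0 or 1 parental counts include Serpinb9c, whose first listed promoter shared 63.0% to 66.0% with those of the other 4. The median identity over all pairs of promoters of the Serpinb1, Serpinb6 and Serpinb9 genes was 52.7%.

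Other genes lie between these serpins. Gm11397, a protein-coding gene between Serpinb9f and Serpinb9g that RefSeq names Serpinb9h, had 0 counts in all parental libraries and was at 11 ± 0.742 CPM in LM1KO and 13.2 ± 1.4 in LM9KO. Gm11385, a pseudogene that shares 16.9% of the windows of Serpinb9c, also had 0 parental counts and was at 1.17 and 1.17 CPM. At the far end of the cluster Nqo2 and Ripk1, which are no serpins, rose as well (averaged log2 fold change 1.19 ± 0.10 and 2.76 ± 0.17). Of the 6 protein-coding genes tested within 500 kb outside the cluster, 2 were higher, 2 lower and 2 did not pass, with log2 fold changes from -1.07 to 1.83, where 86.8% of all genes tested passed.

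**Figure D3:**
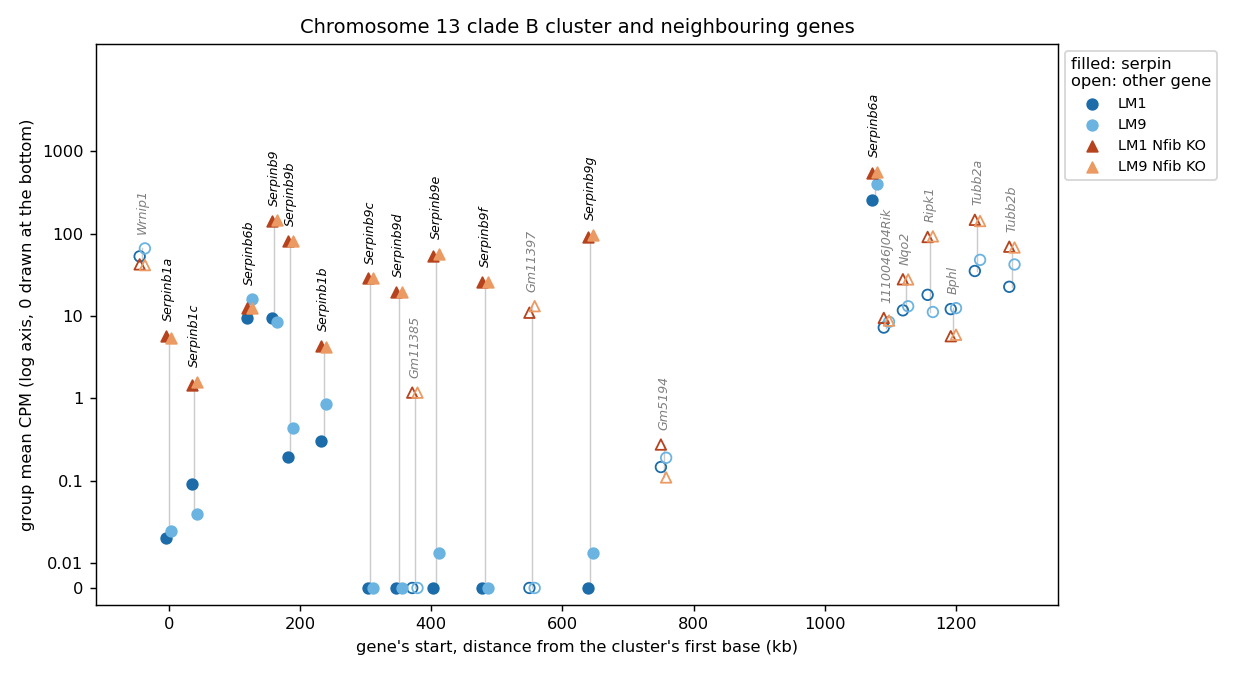
Group mean CPM (log axis, 0 drawn at the bottom) of the genes of the chromosome 13 cluster and of nearby genes against the distance of each gene's start from the cluster's first base. Filled circles (LM1, LM9) and filled triangles (LM1KO, LM9KO) lie furthest apart from Serpinb9c to Serpinb9g, where parental means are at 0 or at most 0.0134 CPM.

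The Serpinb1 and Serpinb6 genes of the same cluster split. Serpinb1a, the mouse gene closest to the human elastase inhibitor, had 0 to 2 counts in the parental libraries and was at 5.99, 5.12 and 6.16 CPM in LM1KO and 5.11, 5.6 and 5.67 in LM9KO. By summed counts it was 255-fold higher in LM1KO (counting interval 70.3 to 2108) and 218-fold higher in LM9KO (60.1 to 1804). Both counts of LM1 were in replicate 2, without which LM1KO was at least 107-fold higher. Serpinb1b and Serpinb1c rose from 0.30 and 0.0925 CPM in LM1 to 4.37 and 1.45 in LM1KO. Serpinb6a, a cytosolic inhibitor of trypsin-like proteases and cathepsin G, was abundant throughout: 258, 262 and 246 CPM in LM1, 544, 548 and 554 in LM1KO, 254, 481 and 461 in LM9 and 582, 541 and 559 in LM9KO. It rose by 1.10 ± 0.19 (log2) in LM1 and by 0.55 ± 0.19 in LM9 (adjusted p = 1.77e-04 and 0.0167). Without LM9 replicate 1 the latter was 0.26 ± 0.04, still past the threshold, and with only LM9 and LM9KO in the fit it did not pass. Its exons overlap Nqo2, 1110046J04Rik and Ripk1 on the opposite strand, and 21.9% of its windows are shared with them. Serpinb6b was at 10.5, 8.98 and 8.67 CPM in LM1, 13.3, 12.5 and 11.6 in LM1KO, 9.82, 20.2 and 17.8 in LM9 and 12.9, 11.7 and 13 in LM9KO. The LM9 libraries straddled the LM9KO ones. Without LM9 replicate 1 it was higher in LM1KO than in LM1 (0.42 ± 0.09, adjusted p = 2.73e-04) and lower in LM9KO than in LM9 (-0.60 ± 0.09, adjusted p = 4.41e-06).

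On chromosome 1 (106861173 to 107610484) the 5 clade B members Serpinb5, Serpinb11, Serpinb7, Serpinb2 and Serpinb8 span 749 kb. Serpinb8, an intracellular serpin that can inhibit furin, was the only one of these above 1 CPM in the parental lines. Its values were 43.1, 45.9 and 45.3 CPM in LM1, 13.5, 13 and 12.5 in LM1KO, 43.6, 40.0 and 39.2 in LM9 and 13.5, 12.9 and 12.9 in LM9KO, with no overlap, and its averaged log2 fold change was -1.71 ± 0.05 (adjusted p = 1.91e-11). The other 4 moved the opposite way from 0 to 4 counts per parental library. Serpinb5 (maspin), described as a tumour suppressor in mammary epithelium, reached 1.45 ± 0.106 CPM in LM1KO and 1.68 ± 0.0849 in LM9KO, where most epithelial markers were lower. Serpinb7 reached 1.12 and 1.16 CPM, and Serpinb11 1.09 and 1.17. Of the 4 protein-coding genes tested within 500 kb, 1 was higher and 3 were lower, where 46.3% of all genes tested were higher and 40.5% lower.

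Of the serpins that inhibit no protease, Serpinh1 changed least of all called members in the averaged contrast, while Serpinf1 rose in both lines. Serpinh1 (Hsp47, chromosome 7, 99345376 to 99353239) binds procollagen in the endoplasmic reticulum. It was at 909, 792 and 855 CPM in LM1, 605, 608 and 619 in LM1KO, 877, 881 and 855 in LM9 and 592, 599 and 608 in LM9KO. The knockout-labelled libraries were all lower, and the averaged log2 fold change of -0.51 ± 0.04 passed (adjusted p = 1.47e-07). Serpinf1 (pigment epithelium-derived factor, chromosome 11, 75409769 to 75422701) is a secreted factor that restrains angiogenesis. It was at 27.4, 26.1 and 27 CPM in LM1, 269, 269 and 275 in LM1KO, 29.3, 14.1 and 13.3 in LM9 and 274, 268 and 268 in LM9KO. Every knockout-labelled library lay far above every parental one. The log2 fold change was 3.33 ± 0.19 in LM1 and 3.92 ± 0.20 in LM9 (adjusted p = 1.27e-08 and 6.43e-09), and 4.31 ± 0.06 in LM9 without replicate 1.

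Serping1 (C1 inhibitor, chromosome 2, 84765387 to 84775444) is the plasma inhibitor of the complement proteases C1r and C1s and of kallikrein. Its values were 4.54, 4.81 and 4.7 CPM in LM1, 0.101, 0.183 and 0.185 in LM1KO, 4.72, 9.11 and 7.87 in LM9 and 0.311, 0.17 and 0.234 in LM9KO. This was 30.2-fold lower in LM1KO (counting interval 18.9 to 51.4) and 29.9-fold lower in LM9KO (20.5 to 45.4), with an averaged log2 fold change of -4.83 ± 0.29 (adjusted p = 1.59e-08). All 4 C1r and C1s genes of the partner lists described below, C1ra, C1rb, C1s1 and C1s2, were lower in the averaged contrast, in which 40.5% of all genes were lower. C1s1 was at 336 ± 13.9 CPM in LM1, 1.56 ± 0.121 in LM1KO, 256 ± 74.2 in LM9 and 1.41 ± 0.263 in LM9KO. C1ra was at 168 ± 3.82, 8.48 ± 0.0497, 150 ± 17.2 and 8.71 ± 0.192 CPM in the same groups. These 4 were picked after their values were seen, C1ra and C1rb as well as C1s1 and C1s2 are close paralogs whose counts may share reads, and plasma kallikrein was not in the lists. Of the 3 clade A members on chromosome 12 (104214544 to 104269372), relatives of antichymotrypsin, Serpina3i rose from 0 to 1 counts per LM1 library to 1.25 ± 0.228 CPM in LM1KO, and Serpina3f from 0.127 to 0.382 CPM (adjusted p = 0.003 in the averaged contrast). With at most 19 counts in a library, Serpina3f lost its call within LM1 or LM9 when single libraries were left out. Serpina3g, an intracellular inhibitor of cathepsins, was below 1 CPM in every library, with 0.642 ± 0.0552 CPM in LM1 and 0.482 ± 0.0664 in LM1KO. Without LM9 replicate 1 it passed in LM9 (1.37 ± 0.37, adjusted p = 0.00219). These 3 share 5.29% to 7.51% of their windows with other clade A genes.

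The upstream sequences of the 24 members with a RefSeq promoter (29 promoters) were searched on both strands for the nuclear factor I palindrome, TTGGC and GCCAA separated by 5 bases, for its core TTGGC, which the palindrome contains, and for the hypoxia response motif ACGTG. Serpinb1a and Serping1 were among the members with none in the table. The palindrome was in 0 of the 29 and in 0.0365% of all 32851 promoters of this length. The core TTGGC was in 11 of 29 (37.9%, against 46.7% of all), and ACGTG in 3 of 29 (10.3%, against 19.6%). None of the 7 Serpinb9 paralogs had a TTGGC core in its first listed promoter, and the second one listed for Serpinb9c had 1. The Serpine2 promoter printed above held a TTGGC core. A match is a description of the letters, and no binding was measured here.

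Summed over the family, serpin mRNA per kb of exon was lower in the knockout-labelled libraries, which rested on Serpine2: the sum of the other 26 members was higher there. The sum was 972 ± 25.5 CPM per kb in LM1, 708 ± 2.49 in LM1KO, 1254 ± 234 in LM9 and 711 ± 6.33 in LM9KO, LM9 replicates 2 and 3 were at 1379 and 1399, and the parental and knockout-labelled libraries did not overlap in either line (exact two-sided permutation p = 0.1, the smallest this design allows). Without Serpine2, a choice made after the values were seen, it was 438 ± 24.0 CPM per kb in LM1, 708 ± 2.48 in LM1KO, 478 ± 26 in LM9 and 711 ± 6.33 in LM9KO, again with no overlap in either line and the same p. In LM1 Serpine2 held 54.9% ± 1.74 (SD) of the whole sum and Serpinh1 35.9% ± 1.94, followed by Serpinb6a with 4.86% ± 0.154. In LM9 these shares were 61.1% ± 5.97, 29.2% ± 6.32 and 5.77% ± 0.879, and Serpine2 held 64.5% without replicate 1. In LM1KO Serpinh1 came first with 35.3% ± 0.332, then Serpinf1 with 16.2% ± 0.188, Serpinb6a with 14.3% ± 0.11, Serpinb9g with 6.67% ± 0.282 and Serpinb9 with 5.77% ± 0.234. LM9KO had these members in the same order, with Serpinf1 at 16.1% ± 0.237 and Serpinb9g at 7.03% ± 0.136. The share of Serpinh1 was close in LM1 and LM1KO although its level was lower in LM1KO, as was the sum.

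**Figure D4:**
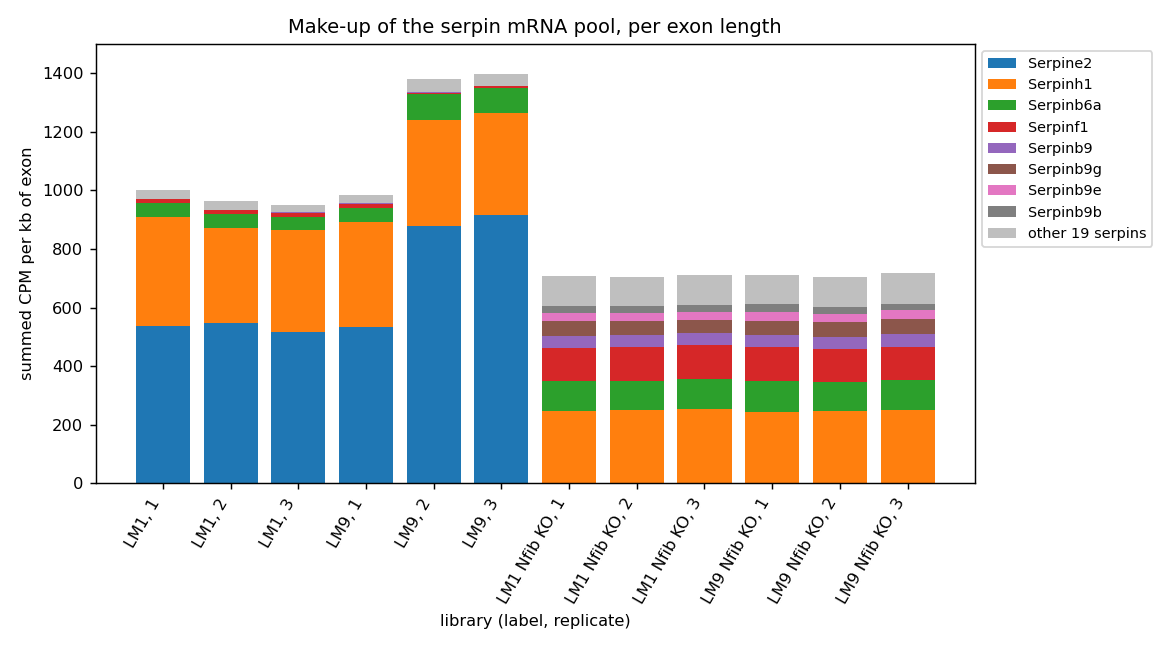
Summed CPM per kb of exon of the 27 serpins in each library, stacked by member. Serpine2 and Serpinh1 make up most of the parental bars, and in the knockout-labelled bars, which reach 705 to 717 CPM per kb, Serpine2 is not visible.

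Between the parental lines the serpin levels depended on 1 library. With all 12 libraries none of the 27 members differed between LM1 and LM9 (limma-voom), where 0.00550% of all genes passed. At an unadjusted p under 0.05 there were 8 members, against 47.7% of all genes. edgeR's quasi-likelihood test gave 0 members, with 0.00550% of all genes called, and DESeq2 gave 6, with 33.7%. Without LM9 replicate 1, 9 members differed, against 65.7% of all genes. Among them Serpinb8, Serpinf1 and Serpina3g were higher in LM1 than in LM9, and Serpine2, Serping1, Serpinb6a, Serpinb6b and Serpinb1b lower. Serpinf1 differed by 0.97 ± 0.07 (log2, LM1 over LM9, adjusted p = 1.04e-09), and Serpine2 differed by -0.75 ± 0.03 (adjusted p = 2.46e-13). Serpinh1 (-0.03 ± 0.04) did not pass in either fit.

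Whether the contrast itself differed between the lines followed the same library. With all libraries the difference passed for 0 members (limma-voom) and for 0% of all genes. At an unadjusted p under 0.05 there were 4 members, against 24.7% of all genes, and edgeR and DESeq2 each gave 0, with 0.00550% and 0.384% of all genes called. Without LM9 replicate 1 it passed for 7 members, where 57.2% of all genes passed. Among them Serpinb6a, Serpinb6b and Serpinb1b had the more positive fold change in LM1, and Serpinf1, Serpina3g and Serpinb8 the more positive one in LM9. The difference was 0.85 ± 0.05 for Serpinb6a (log2, adjusted p = 3.29e-10) and -0.97 ± 0.07 for Serpinf1 (adjusted p = 5.93e-09). For Serpine2, whose knockout-labelled levels rest on 3 to 7 counts per library, it was 0.85 ± 0.53 and did not pass (adjusted p = 0.188).

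No serpin difference between the knockout-labelled groups was detected. None of the 27 members differed between LM1KO and LM9KO in the limma-voom fit, in which 0% of all genes passed. At an unadjusted p under 0.05 there were 0 members and 0.979% of all genes, and edgeR and DESeq2 each gave 0 members and 0 genes in all. Over the 22 members with at least 1 CPM in both groups the log2 differences ran from -0.33 to 0.07, and their 95% intervals lay within -0.81 to 0.70. For Serpinb9 the difference was -0.01 (-0.14 to 0.11), for Serpinf1 0.00 (-0.35 to 0.36) and for Serpinh1 0.03 (-0.10 to 0.15).

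The proteases and receptors that serpins act with were followed in 7 lists. Of the 113 list genes tested, 35 were higher, 64 lower and 14 did not pass in the averaged contrast, so 87.6% were called, near the background of 86.8% for all genes, of which 46.3% were higher and 40.5% lower. The counts of each list are to be read beside these shares, and no list was tested against the other genes. A gene that was lower is in both the plasminogen activation and the receptor list, and is counted once in these totals. In the plasminogen activation list 3 of 7 were higher, 3 lower and 1 did not pass (median log2 fold change -0.12). Plau, the urokinase that Serpine2 inhibits, was at 230.2 ± 6.59 CPM in LM1 and 76 ± 1.79 in LM1KO, while its receptor Plaur was at 31.9 ± 2.71 and 139 ± 3.27. Anxa2, a subunit of a plasminogen receptor, rose by 1.32 ± 0.15 (log2) and Plgrkt, another such receptor, fell (-0.53 ± 0.05).

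Of the 31 thrombin, coagulation and membrane serine protease genes, 10 were higher, 17 lower and 4 did not pass (median -2.25). Thrombomodulin (Thbd), which turns thrombin towards anticoagulation, had 0 to 5 counts per parental library and was at 152 ± 4.02 CPM in LM1KO. Gas6, a vitamin K-dependent ligand of Axl, was at 0.358 CPM in LM1 and 40.8 in LM1KO. The protease-activated receptor F2rl1 had 202 to 266 counts in LM1 and 0 in every knockout-labelled library, and Prss22, an epithelial serine protease, was at 24.9 CPM in LM1 and 0.0519 in LM1KO. The 4 granzyme and granulocyte protease genes in the files split 2 and 2: the mast cell tryptases Tpsab1 and Tpsb2 had 0 parental counts and were at 6.52 and 0.794 CPM in LM1KO, and Prtn3, which elastase-type serpins inhibit, and Gzmm were lower. Granzyme B, the target of Serpinb9, was not among the genes analysed.

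Of the 20 cysteine cathepsins, calpains and caspases, 4 were higher, 13 lower and 3 did not pass (median -0.96). Legumain (Lgmn) was at 776 ± 12.7 CPM in LM1 and 52.5 ± 1.05 in LM1KO, and Ctso at 51.7 and 3.24. Ctsc, which activates granzymes, rose (1.84 ± 0.33), as did Capn2 (0.98 ± 0.06). The 16 protease inhibitors outside the serpin family comprised 5 that were higher, 10 lower and 1 that did not pass (median -1.48). Wfdc2 was at 1195 ± 61.9 CPM in LM1 and 1.63 ± 0.239 in LM1KO, and Spint1, the epithelial Kunitz inhibitor of matriptase, at 157 ± 5.73 and 0.378 ± 0.172. The largest rises in this list were in genes of low level: Wfdc1 was at 2.3 CPM and Spink5 at 0.311 in LM1KO.

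Among 9 receptors that bind serpins or their complexes 4 were higher, 4 lower and 1 did not pass (median -0.07). Vldlr had at most 4 counts in a parental library and was at 40.0 ± 0.417 CPM in LM1KO, and Plxdc2, a receptor for Serpinf1, had 0 parental counts and was at 2.36 ± 0.395 CPM. Sorl1, a sorting receptor, fell (-5.18 ± 0.41). Of the 27 collagen chains and folding partners of Serpinh1, 7 were higher, 16 lower and 4 did not pass (median -0.40). Fkbp10 and Col3a1 rose from 0.244 and 0.219 CPM in LM1 to 56.7 and 20.4 in LM1KO, and the basement membrane chains Col4a1 and Col4a2 were at 889 and 558 CPM in LM1 and 0.087 and 0.121 in LM1KO. The small fall of Serpinh1 thus stood beside collagen genes that moved far in both directions. Col1a1, Col1a2 and Col3a1 are also in the mesenchymal marker list.

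**Figure D5:**
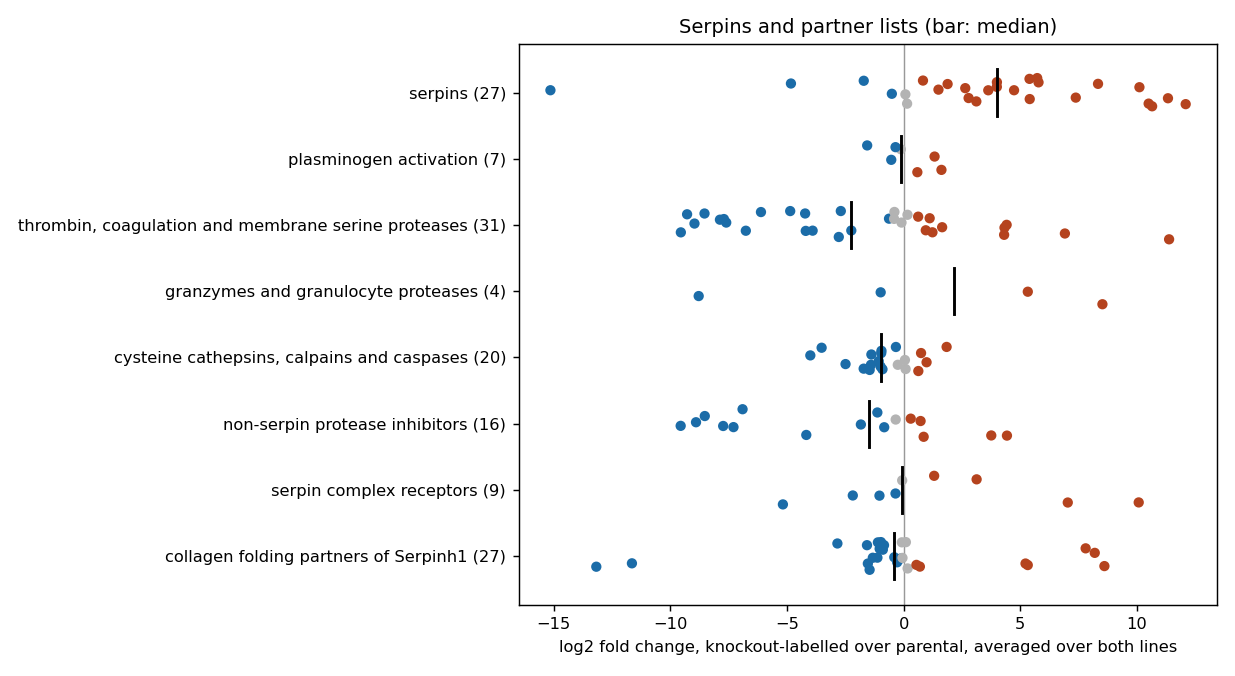
Averaged log2 fold change of each serpin and of each partner gene, 1 row a list with its number of genes, red where higher, blue where lower (limma-voom adjusted p under 0.05) and grey otherwise, with the list's median as a bar. The serpins' median of 3.99 lies to the right of 0, and the medians of the lists range from -2.25 to 2.17, the latter over 4 genes. Of the 27 serpins, 13 could have entered the test only through the knockout-labelled libraries, and all 13 rose.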

How the data were processed

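RNA from 12 tumoursphere samples was sequenced as single-end 76-base reads with a stranded mRNA kit. The authors deposited raw counts per gene, made by aligning reads to mm10 with STAR and counting 5′ ends over the union of exons with QuasR. Versions, strand setting and treatment of reads that match several genes are not given in the sources used here. Gene names came from GENCODE M21, in which 18268 of 18278 identifiers were found. Sequences came from RefSeq (GRCm38.p6), and protein sequences were not used here.

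Counts were scaled by TMM and filtered with filterByExpr, which left 18176 genes. limma-voom (limma 3.58.1, edgeR 4.0.16, R 4.3.3) was fitted with 1 mean per group over all 12 libraries, with Benjamini-Hochberg adjustment over all genes tested and a threshold of 0.05. The scripts were tested on simulated data. DESeq2 1.42.0, edgeR's quasi-likelihood test, other scalings and filters, a replicate block and leaving out each library were tried as alternatives. Ratios of summed counts carry exact 95% intervals, and a group at 0 was set to 3 counts. Intervals cover counting error only. Values per library are given for serpins with a group mean of at least 5 CPM in any group, Serpine2 and the Serpinb9 paralogs. From each partner list up to 2 of the largest called rises and falls are named, with a few other genes chosen after their values were seen. No column of per-sample values was left out (0). The members and lists were chosen with earlier results of these data known. Every pair of replicates differed by more than counting noise, so none was merged. Values of 1 member and 1 partner gene are not reported here, and both are included in counts and sums.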

Additional observations from a re-analysis of the deposited data

Results flagged for a closer look

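Serpin-named genes that GENCODE M21 does not annotate as protein-coding lay outside the comparisons and showed counts in the knockout-labelled libraries above the level of the parental controls. Serpinb10, annotated as a polymorphic pseudogene between Serpinb2 and Serpinb8, was at 2.94 CPM (mean, LM1KO), with 0 or 1 counts per parental library. Serpina3h, a transcribed pseudogene beside Serpina3g, was at 2.59 CPM in LM1KO with 0 to 2 counts per parental library. Serpina3e-ps was at 0.424 CPM in LM1KO with 0 or 1 counts per parental library. Serpinb10 shares exon bases with Serpinb2, and both Serpina3 pseudogenes share 76-base windows with the 3 clade A members, and the part of this in their counts was not tested.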

How the results depend on the processing

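The counts of called serpins in LM1, in LM9 and averaged over the lines stayed within 1.5 times their main value of 25 under the alternatives run, except that a mean of at least 5 CPM left only 14 members to test, of which 13 passed in each of these comparisons, against 84.4%, 84.8% and 88.8% of all genes. Between LM1 and LM9 the main count of 0 became 4 with that filter, 6 with DESeq2, 6 with total counts and 9 with sample quality weights, where 39.5%, 33.7%, 28.8% and 63.8% of all genes passed, and the difference of the contrasts went from 0 to 6 with sample quality weights, where 58.1% of all genes passed. Leaving out each library in turn gave 24 to 26 called members in LM1 (77.6% to 88.6% of all genes), 24 to 27 in LM9 (78.8% to 88.9%), 25 to 26 averaged (85.2% to 91.9%), 0 to 7 for the difference of the contrasts, 0 to 9 between LM1 and LM9 and 0 to 0 between the knockout-labelled groups, and the counts of 9 and 7 came without LM9 replicate 1. Without that library 104 partner genes were called, against 91.9% of all genes. The count of partner genes in the other fits that left out a library is not given here. Values that changed sign belonged to genes not called with all libraries: averaged over the lines, leaving out single libraries moved Serpina3g from -0.0506 (log2, without LM9 replicate 3) to 0.479 (without LM9 replicate 1) and Serpinb6b from -0.0912 (without LM9 replicate 1) to 0.178 (without LM9 replicate 2). With sample quality weights Serpina3g was at 0.517 and Serpinb6b at -0.0572, and with total counts Serpinb6b was at 0.352, and at 0.0689 in LM9. The causes were not tested. Values over LM9 replicates 2 and 3 alone and ratios of summed counts without a library, given beside the results, were added after seeing the data. Serpina3f, with at most 19 counts per library, lost its LM1 call without LM1 replicate 2 (1.17), LM1 replicate 3 (1.55), LM1KO replicate 2 (1.39) or LM1KO replicate 3 (1.47), and its LM9 call without LM9 replicate 2 (1.41). Serpinb6a lost its LM9 call with only the groups compared (0.54), a fit that gives no averaged contrast.

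With the replicate number as a block 24 members passed in LM1 (Serpina3f was lost, 1.44), 25 in LM9, 25 averaged, 0 in the other 3 comparisons and 100 partner genes (averaged), against 80.3%, 81.6% and 86.3% of all genes in LM1, in LM9 and averaged. Same-numbered libraries did not deviate together (r from -0.16 to 0.09), so the numbers were not treated as pairs. Depth limits the parental level of the 13 members with at most 5 counts in every parental library.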

Other observations

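Of 19 protein-coding genes within 500 kb of Serpinf1 and Serpinf2, 9 were higher, 8 lower and 2 did not pass in the averaged contrast, a share near that of all genes tested, of which 86.8% were called, 46.3% higher and 40.5% lower. Of 2 such genes tested beside the Serpina3 cluster, Clmn was higher and Dicer1 lower.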
